A study of Mus musculus with 42 samples.

Results

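The effect of a cholesterol diet was measured in the liver of mice whose constitutive androstane receptor (CAR) was activated with TCPOBOP. The comparison holds 12 of the 42 samples of the series, chosen by their labels: 6 mice on cholesterol diet and 6 mice on standard diet, all given TCPOBOP and all hybridized against the first reference pool. All were female C57BL/6 mice injected with 3 mg/kg TCPOBOP in corn oil and killed 24 h later, and RNA came from the left lateral lobe of the liver. The cholesterol diet was a Western chow with 1% cholesterol by weight, fed for 1 week, and the standard diet was another chow product. The effect of cholesterol and that of other differences between the chows therefore cannot be told apart. The labels give an age of 18 weeks for the TCPOBOP mice on cholesterol diet and of 19 weeks for those on standard diet, so diet and age cannot be told apart either. As the background of the diet, 6 vehicle (corn oil) mice on standard diet and 5 of 6 on cholesterol diet, all 19 weeks old, stood in the same fit. The scanner values of vehicle replicate 2 on cholesterol diet were not analysed here. Each mouse was 1 array. The p-values rest on the spread between mice within the 4 groups, pooled over all 23 arrays and moderated across genes by limma.

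Every value is a log2 ratio of a liver sample to the common reference pool, a mix of the samples, so it sets the mice against each other for 1 gene and not gene against gene. A fold change is the mean log2 ratio on cholesterol diet minus that on standard diet. Adjusted p-values came from limma with Benjamini-Hochberg adjustment over the 277 measured mouse genes, and a gene was called at an adjusted p under 0.05. Of these genes, 50 were below background on all 12 arrays, where a missing call says little about the diet. The median sample signal was 157.68 to 297.11 over the 12 arrays, with 65.1% to 79.6% of probes above background. Replicate 3 on cholesterol diet had a residual SD of 0.43, against 0.20 to 0.33 for the other 11 arrays. Of 8 hepatocyte markers, 7 were above background on all 12 arrays and 0 were called. Their median over a mouse ran from -0.19 to 0.06 on standard diet and from -0.29 to 0.10 on cholesterol diet. Of the markers of other cells, only Msr1 of macrophages and 5 adipocyte genes were on the array. Msr1 was below background on all 12 arrays, and the adipocyte median ran from -0.05 to 0.10 on standard diet and from -0.12 to 0.09 on cholesterol diet. In a bulk sample, fewer cells of a type and less RNA per cell cannot be told apart.

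The liver makes cholesterol from acetyl-CoA through mevalonate, squalene and lanosterol. When membrane sterol is low, Scap carries the SREBP precursors from the endoplasmic reticulum to the Golgi, where 2 proteases, encoded by Mbtps1 and Mbtps2, release the part that enters the nucleus and activates genes of the pathway. When sterol is high, the Insig proteins hold Scap back. CAR is a nuclear receptor that senses xenobiotics and induces genes of drug metabolism, with Cyp2b10 as its usual marker. Cholesterol leaves hepatocytes as bile acids, through Cyp7a1 and further cytochromes P450, or through sterol transporters.

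The promoters of 4 genes of cholesterol synthesis and sterol sensing are shown because SREBP is known to act at such promoters beside the factor NF-Y. Of the 4, only Lss was called for the diet effect with TCPOBOP. Each is the RefSeq window (GRCm38.p6) of 250 bases before to 50 bases after a gene's start, 300 bases in all, on the gene's strand. Capitals mark matches on either strand to CCAAT, the letters NF-Y binds, and to CACNCCAC, the core of a sterol regulatory element. The 2 motifs do not share their letters. Lss (chr10:76531355-76531654, plus strand) encodes lanosterol synthase, Hmgcs1 (chr13:119690101-119690400, plus strand) the cytosolic HMG-CoA synthase, Msmo1 (chr8:64733529-64733828, minus strand) a sterol C4-methyl oxidase, and Insig1 (chr5:28071162-28071461, plus strand) a sterol sensor.
Lss: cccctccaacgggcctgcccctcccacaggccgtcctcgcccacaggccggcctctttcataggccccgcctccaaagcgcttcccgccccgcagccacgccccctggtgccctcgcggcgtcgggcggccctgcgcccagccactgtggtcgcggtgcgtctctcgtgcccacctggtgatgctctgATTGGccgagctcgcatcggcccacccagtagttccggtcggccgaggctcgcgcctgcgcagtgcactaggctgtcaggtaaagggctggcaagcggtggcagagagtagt
Hmgcs1: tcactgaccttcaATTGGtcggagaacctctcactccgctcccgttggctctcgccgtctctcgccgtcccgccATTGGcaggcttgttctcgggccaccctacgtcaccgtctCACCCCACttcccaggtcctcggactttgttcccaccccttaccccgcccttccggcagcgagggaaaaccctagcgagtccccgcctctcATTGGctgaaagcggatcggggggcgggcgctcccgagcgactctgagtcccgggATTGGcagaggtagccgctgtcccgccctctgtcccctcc
Msmo1: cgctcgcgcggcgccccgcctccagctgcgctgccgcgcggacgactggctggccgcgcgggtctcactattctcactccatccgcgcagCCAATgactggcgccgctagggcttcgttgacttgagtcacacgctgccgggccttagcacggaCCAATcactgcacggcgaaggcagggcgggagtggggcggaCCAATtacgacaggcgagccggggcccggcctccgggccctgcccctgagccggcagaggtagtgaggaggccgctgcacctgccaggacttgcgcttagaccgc
Insig1: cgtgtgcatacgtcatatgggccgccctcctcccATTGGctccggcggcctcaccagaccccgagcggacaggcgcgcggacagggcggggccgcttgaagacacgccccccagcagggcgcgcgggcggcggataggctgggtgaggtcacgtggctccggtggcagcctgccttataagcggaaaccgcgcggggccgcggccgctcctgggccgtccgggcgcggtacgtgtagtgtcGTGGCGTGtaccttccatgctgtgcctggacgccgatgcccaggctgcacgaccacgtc
A script found CCAAT 1 time in the Lss window, 4 times in that of Hmgcs1, 3 times in that of Msmo1 and 1 time in that of Insig1. CACNCCAC stood 1 time in the Hmgcs1 window and 1 time in that of Insig1. Of all 27025 genes with a window, 41.1% held CCAAT and 7.12% held CACNCCAC, and of the 209 matched genes of the array 51.2% and 11.5% did. Only 13 of the 18 cholesterol synthesis genes (72.2%) had a window, so a share over that list is void and is not given. A match is a description of the letters in this window. The windows shown were picked, so their matches beside these shares do not show an enrichment.

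With TCPOBOP in both groups, the cholesterol diet changed 12 of the 277 genes (4.33%), of which 2 rose (0.722%) and 10 fell (3.61%). The rises were Foxa2 and Slco2b1. The named genes that fell were the cytochromes P450 Cyp2a4, Cyp2a12, Cyp3a25 and Cyp17a1, the cholesterol synthesis genes Lss and Sqle, the sterol sensor Insig2, the transcription factor gene Jun and the phospholipase gene Pla2g6. The split of rises and falls moved with the scaling: it was 2 and 1 with median centring, 4 and 1 with loess fitted on the spikes, and 5 and 5 in the deposited log ratios. An unadjusted p under 0.05 was reached by 54 genes (19.5%), 24 higher (8.66%) and 30 lower (10.8%). The groups of 6 mice did not overlap in 8 genes (2.89%), of which 2 were higher (0.722%) and 6 lower (2.17%) on cholesterol diet. Over all genes the median log2 fold change was -0.005, with 130 positive and 147 negative values. The deposited log ratios moved that median to 0.129. Leaving out 1 mouse gave 7 calls without replicate 3 and 23 without replicate 5 on cholesterol diet, and 22 without vehicle replicate 1 on cholesterol diet.

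**Figure D1:**
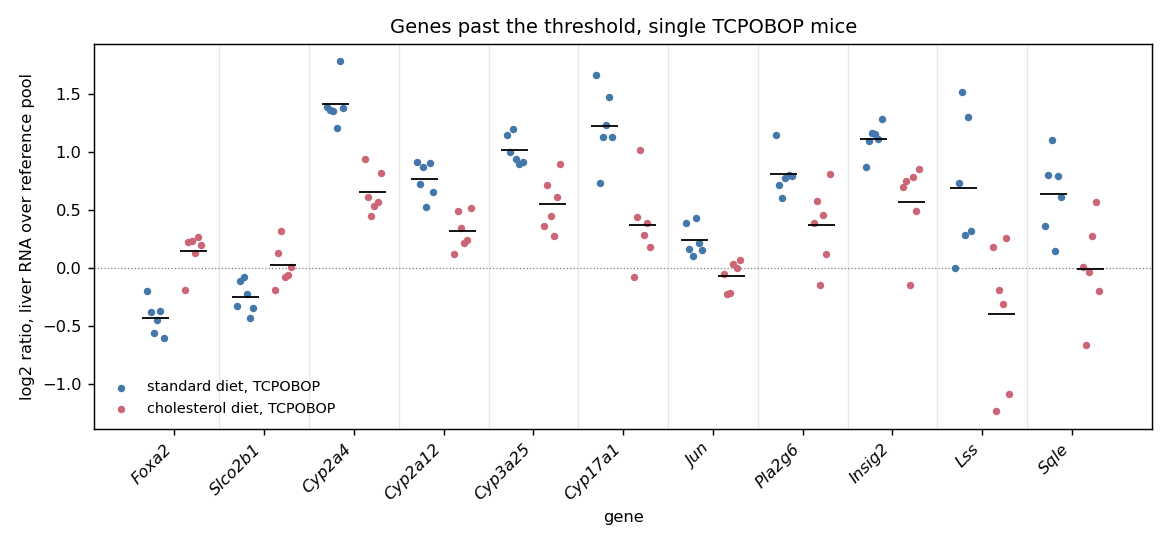
The log2 ratio to the reference pool (vertical axis) of the 11 named genes past the threshold in each TCPOBOP mouse, on standard and on cholesterol diet, with the mean of the 6 mice of a group as a line. Cyp2a4, Foxa2, Cyp2a12, Cyp3a25, Jun and Insig2 have groups that do not overlap, and Jun was below background in all 6 mice on cholesterol diet.

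Among the cytochromes P450, Cyp2a4, a steroid hydroxylase of the Cyp2a family, had log2 ratios of 1.21, 1.37 and 1.78 (lowest, median, highest) on standard diet and of 0.45, 0.59 and 0.94 on cholesterol diet. The groups did not overlap. The log2 fold change was -0.76 (standard error 0.11, n = 6 a group, adjusted p = 0.000356 from limma), and it was -0.48 in vehicle mice (adjusted p = 0.00723). Cyp2a12, another member of that family, had 0.52, 0.80 and 0.91 on standard diet and 0.12, 0.29 and 0.52 on cholesterol diet. All mice on cholesterol diet lay below those on standard diet, by a narrow margin. Its log2 fold change was -0.44, with a standard error of 0.09 and an adjusted p of 0.0119 from limma. The call was lost with median centring (-0.41, adjusted p = 0.059), with loess on the spikes (-0.34, adjusted p = 0.119) and in the deposited log ratios (-0.36, adjusted p = 0.0612). Near-identical paralogs such as those of the Cyp2a, Cyp2b and Cyp3a families can share hybridization on a cDNA array, which was not tested.

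Cyp3a25, a drug-metabolizing P450 of the Cyp3a family, had log2 ratios of 0.90, 0.97 and 1.20 on standard diet and of 0.28, 0.53 and 0.90 on cholesterol diet. Every mouse on cholesterol diet lay below every mouse on standard diet. The mean difference was -0.47 (standard error 0.10, adjusted p = 0.0135 from limma), beside -0.80 in vehicle mice (adjusted p = 2.11e-05). Median centring gave Cyp3a25 -0.39 (adjusted p = 0.084), loess on the spikes -0.33 (adjusted p = 0.153) and the deposited log ratios -0.37 (adjusted p = 0.0817), and the call was lost in each. Cyp17a1, the steroid hydroxylase and lyase of androgen synthesis, had 0.73, 1.18 and 1.66 on standard diet and -0.07, 0.34 and 1.02 on cholesterol diet. All 6 mice on cholesterol diet were below the standard diet mean, although the groups overlapped. Cyp17a1 fell by 0.85 with a standard error of 0.20 (adjusted p = 0.0142 from limma). Of 6 steroid hormone synthesis genes only Cyp17a1 passed the threshold, and 2 were below background on all 12 arrays. Cyp17a1 missed the threshold under median centring (-0.78, adjusted p = 0.0572) and under loess on the spikes (-0.76, adjusted p = 0.0504).

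Of 18 genes of xenobiotic phase I metabolism, 2 fell (Cyp2a4 and Cyp3a25), 0 rose and 16 were not called, with a median log2 fold change of -0.05. The CAR marker Cyp2b10 was high in all 12 mice, with 1.28, 1.39 and 1.71 on standard diet and 0.99, 1.15 and 1.30 on cholesterol diet, against medians of -1.50 and -1.90 in vehicle mice on standard and cholesterol diet. The 2 TCPOBOP groups overlapped. Its diet difference was -0.29 (standard error 0.15, adjusted p = 0.321). The paralogs Cyp2b9 and Cyp2b13 had differences of -0.27 (adjusted p = 0.358) and -0.24 (adjusted p = 0.533). Cyp3a11, a P450 induced by several xenobiotic receptors, had -0.05 (adjusted p = 0.959), and Alas1, the rate-limiting enzyme of hepatic heme synthesis, had -0.25 (adjusted p = 0.635). None of these 5 passed the threshold. The paper's RT-PCR gave Cyp2b10 a far larger rise with TCPOBOP on both diets than these arrays show. A small array difference between the diets therefore does not show that CAR was equally active on both.

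Foxa2, a forkhead transcription factor of hepatocytes, had log2 ratios of -0.61, -0.41 and -0.20 on standard diet and of -0.19, 0.21 and 0.26 on cholesterol diet. The groups did not overlap, the lowest mouse on cholesterol diet lying just above the highest on standard diet. Foxa2 rose by 0.57 with a standard error of 0.10 (adjusted p = 0.000922 from limma). In vehicle mice the diet difference was 0.05 (adjusted p = 0.861). The difference between both diet effects was 0.53 (standard error 0.14) with an unadjusted p of 0.00114 and an adjusted p of 0.0528 from limma, so it missed the threshold. Foxa2 was the only 1 of 8 liver-enriched transcription factors called, and their median log2 fold change was 0.11. Of the 8, 2 were below background on all 12 arrays. Cebpa, which encodes a factor of hepatocyte differentiation, had 0.37 (standard error 0.12, adjusted p = 0.0825).

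Slco2b1, an organic anion uptake transporter, had log2 ratios of -0.43, -0.28 and -0.07 on standard diet and of -0.19, -0.02 and 0.32 on cholesterol diet. The groups overlapped, with all 6 mice on cholesterol diet above the standard diet mean. It rose by 0.27 with a standard error of 0.08 (adjusted p = 0.0443 from limma), and the call held in 10 of the 23 fits that left out 1 mouse, with adjusted p up to 0.131. Of 13 transporters of bile acids and xenobiotics, 1 rose, 0 fell and 12 were not called, at a median of 0.06. Abcb11, the bile salt export pump, had -0.16, 0.05 and 0.23 on standard diet and 0.13, 0.35 and 0.50 on cholesterol diet. Its difference of 0.27 (standard error 0.08, adjusted p = 0.0532 from limma) missed the threshold, whereas in vehicle mice it rose by 0.49 (adjusted p = 0.000341).

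Jun, a subunit of the AP-1 transcription factor, was above background in 3 of 6 mice on standard diet and in 0 of 6 on cholesterol diet, so no fold is given. It fell with an adjusted p of 0.0142 from limma, and it was the only 1 of 5 cytokine signalling genes called. Pla2g6, a calcium-independent phospholipase, had log2 ratios of 0.60, 0.78 and 1.15 on standard diet and of -0.14, 0.42 and 0.81 on cholesterol diet. The groups overlapped, with 5 of 6 mice on cholesterol diet below the standard diet mean. Pla2g6 fell by 0.44 with a standard error of 0.12 (adjusted p = 0.0443 from limma), and this call held in 7 of the 23 fits that left out 1 mouse, with adjusted p up to 0.112. Under median centring and under the spike loess the calls of Pla2g6 (-0.41, adjusted p = 0.084, and -0.37, adjusted p = 0.204) and of Jun (adjusted p = 0.0555 and 0.163) were lost.

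Most measured cholesterol synthesis genes had a lower mean on cholesterol diet, and few of them passed the threshold. Of the 18 measured genes, 3 fell, 0 rose and 15 were not called, while 12 had an unadjusted p under 0.05, all lower, and a 95% interval of the log2 fold change below 0. The fold change was negative in 16 and positive in 2, with a median of -0.64 against -0.005 over all genes. In 11 of the 18 genes all 6 mice on cholesterol diet lay below the standard diet mean, as in 31 of all 277.

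Lss had log2 ratios of 0.00, 0.52 and 1.52 on standard diet and of -1.23, -0.25 and 0.26 on cholesterol diet. All 6 mice on cholesterol diet lay below the standard diet mean, with overlapping groups. It fell by 1.09 with a standard error of 0.29 (adjusted p = 0.0406 from limma), and the call held in 13 of the 23 fits that left out 1 mouse, with a log2 fold change of -1.23 to -0.92. Sqle, the squalene epoxidase, had 0.14, 0.70 and 1.11 on standard diet and -0.66, -0.01 and 0.56 on cholesterol diet, where 5 of 6 arrays were above background. All 6 mice on cholesterol diet were again below the standard diet mean. The log2 fold change of Sqle was -0.64 (standard error 0.18, adjusted p = 0.0443 from limma), and that call held in 9 of the 23 fits. Both calls were lost with median centring (-1.02 for Lss, adjusted p = 0.0631, and -0.59 for Sqle, adjusted p = 0.059) and with loess on the spikes (-1.02, adjusted p = 0.0566, and -0.57, adjusted p = 0.117).

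Upstream in the pathway, Hmgcs1 had log2 ratios of 0.21, 1.07 and 1.79 on standard diet and of -1.21, -0.07 and 0.82 on cholesterol diet. The groups overlapped over much of their range. Its log2 fold change of -1.09 was as large as that of Lss, with a standard error of 0.33 and an adjusted p of 0.0532 from limma. The mevalonate kinase gene Mvk and the decarboxylase gene Mvd had -0.54 (standard error 0.23, adjusted p = 0.157) and -0.65 (standard error 0.22, adjusted p = 0.0889). Pmvk, the phosphomevalonate kinase gene between them, was below background on all 12 arrays, and no fold is given.

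In the steps to squalene, Fdps, the farnesyl diphosphate synthase gene, had -0.04, 0.66 and 1.41 on standard diet and -1.44, -0.07 and 0.23 on cholesterol diet. Fdft1, the squalene synthase gene, had -0.01, 0.61 and 1.34 on standard diet and -1.11, -0.12 and 0.34 on cholesterol diet. Both genes had overlapping groups, and their log2 fold changes were -1.06 (standard error 0.35, adjusted p = 0.0765) and -0.96 (standard error 0.28, adjusted p = 0.0532). Idi1, the isopentenyl diphosphate isomerase gene, stood apart with a positive value of 0.10 (standard error 0.10, adjusted p = 0.698), as did Acat2, an acetyl-CoA acetyltransferase gene, with 0.05 (adjusted p = 0.924).

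After lanosterol, Cyp51, the lanosterol demethylase gene, had -0.12, 0.63 and 1.24 on standard diet and -1.49, -0.07 and 0.35 on cholesterol diet, a difference of -0.95 (standard error 0.35, adjusted p = 0.116). Msmo1 had 0.06, 0.83 and 1.39 on standard diet and -1.67, -0.26 and 0.66 on cholesterol diet, a difference of -1.11 (standard error 0.35, adjusted p = 0.0661). These are differences of about the size of that of Lss with larger standard errors, which pool the spread of the vehicle mice too. Nsdhl, the next enzyme in the removal of the C4 methyl groups, had -0.63 (standard error 0.35, adjusted p = 0.355). The genes of the last steps had differences nearer 0, with -0.33 for Dhcr7 (adjusted p = 0.178), -0.22 for Sc5d (adjusted p = 0.519) and -0.08 for Ebp (adjusted p = 0.556).

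**Figure D2:**
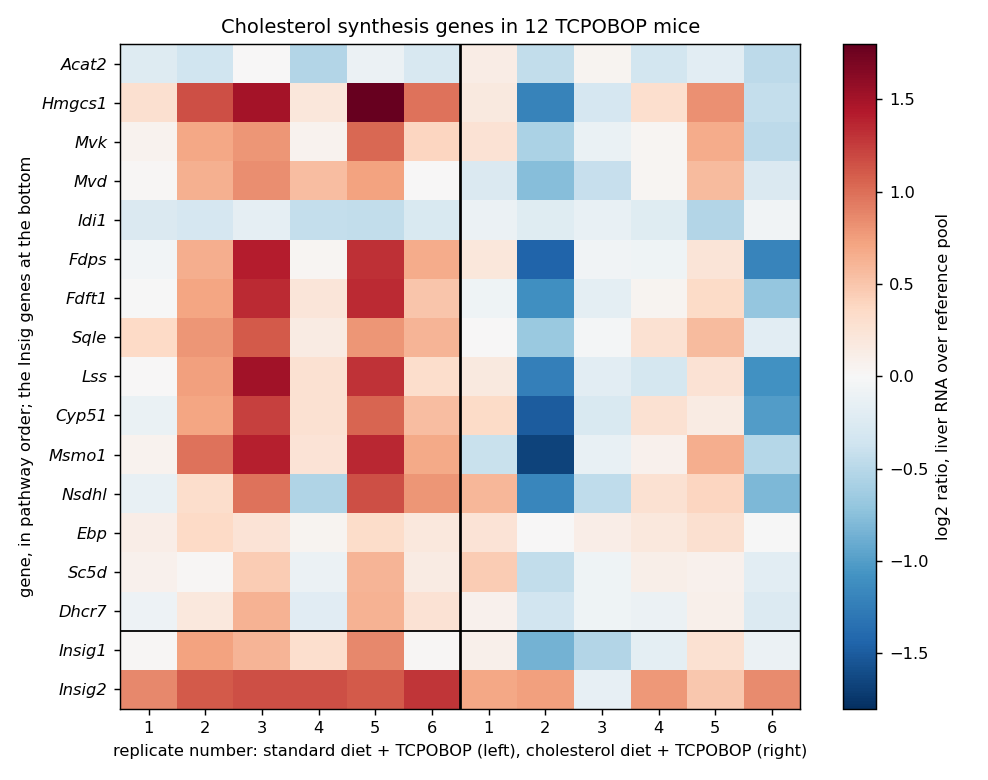
The log2 ratio to the reference pool (colour scale) of the named cholesterol synthesis genes above background, with Insig1 and Insig2, in each of the 12 TCPOBOP mice (columns), on standard and on cholesterol diet. Replicates 3 and 5 on standard diet are high across most genes, and replicate 2 on cholesterol diet is the lowest of its group in 13 of the 18 genes of the list.

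Single mice stood high or low across most of the pathway genes. On standard diet the median over the 18 genes was 0.01, 0.65, 0.91, 0.06, 0.91 and 0.35 in replicates 1 to 6, and on cholesterol diet it was 0.15, -0.67, -0.15, 0.07, 0.27 and -0.36. Replicates 1 and 4 on standard diet thus lay within the range of the cholesterol diet mice. Replicates 3 and 5 on standard diet were each among the 2 highest of their group in 16 of the 18 genes, and replicate 5 on cholesterol diet was the highest of its group in 12. The median SD of the 18 genes was 0.381 on standard diet and 0.458 on cholesterol diet, against 0.135 and 0.156 over all genes. In vehicle mice it was 0.275 and 0.389. Leaving out 1 mouse moved the list's median log2 fold change from -0.64 to between -0.75 (without replicate 5 on cholesterol diet) and -0.47 (without replicate 2 on cholesterol diet).

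In vehicle mice the cholesterol diet called 40 genes (14.4%), 13 higher (4.69%) and 27 lower (9.75%), among them 13 of the 18 cholesterol synthesis genes, all lower, with a median of -1.21. The per-mouse median of the list was -0.003 to 0.62 in vehicle mice on standard diet and -1.29 to -0.23 in those on cholesterol diet. These 2 ranges did not overlap, unlike those of the TCPOBOP mice. The log2 fold change of Msmo1 was -2.77 in vehicle mice (adjusted p = 1.98e-05), that of Cyp51 -2.10, that of Fdps -1.89, that of Hmgcs1 -1.86 and that of Fdft1 -1.76. For Lss the value was -1.40 (adjusted p = 0.00261). Sqle was below background on all 5 arrays of vehicle mice on cholesterol diet, so its fall there is given only as a bound, at least 1.62-fold.

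The difference between both diet effects, tested as the interaction, was called for 0 of 277 genes (0%) with limma at an adjusted p under 0.05. Only the TCPOBOP groups differed in age between the diets (18 against 19 weeks), so the interaction and age cannot be told apart. An unadjusted p under 0.05 was reached by 36 genes (13%), and the lowest adjusted p was 0.0528. For cholesterol synthesis the interaction was positive in 17 of 18 genes, with a median of 0.46, against 146 of 277 and a median of 0.007 over all genes. In 16 of the 18, and in 111 of all 277, the gene fell in vehicle mice and the fall was smaller or absent with TCPOBOP. Genes that did not fall in vehicle mice cannot enter that count, so 111 of 277 is not a base rate for it. In the list, 3 genes had an unadjusted p under 0.05. Of the 40 genes called in vehicle mice, a choice made on that contrast, 39 had a smaller absolute change with TCPOBOP. Msmo1 had an interaction of 1.65 (standard error 0.51, unadjusted p = 0.00388, adjusted p = 0.0895 from limma), Cyp51 of 1.15 (adjusted p = 0.302) and Hmgcs1 of 0.76 (adjusted p = 0.595). Lss had 0.30 (adjusted p = 0.862). Msmo1 passed the threshold within the arrays whose spot positions are in millimetres (2.16, adjusted p = 0.0163) and with replicate 1 of the vehicle mice on cholesterol diet left out (1.98, adjusted p = 0.0277), and not in the fit of all 23 arrays. Of the 12 genes called with TCPOBOP, 5 were also called in vehicle mice (41.7% of the 12 and 12.5% of the 40), with Cyp2a4, Cyp3a25, Lss and Sqle among them.

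The 6 genes that shared the lowest adjusted p of the interaction (0.0528) were Foxa2, Apoa4, Abcc3, Cyp4f14, Cyp2e1 and Pparg, chosen after their values were seen. With dim probes left out, these 6 passed with an adjusted p of 0.0433. Abcc3, an exporter of organic anions into the blood, had a diet difference of -0.12 with TCPOBOP and of -0.89 in vehicle mice, and Cyp2e1, the ethanol-inducible P450, had 0.12 and -0.46. Cyp4f14, a fatty acid hydroxylase of the Cyp4f family, had 0.22 with TCPOBOP and 0.81 in vehicle mice. Pparg, the nuclear receptor of fat storage, had 0.01 and -0.49, and it was above background in 4 of 6 mice on standard diet and 3 of 6 on cholesterol diet with TCPOBOP.

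**Figure D3:**
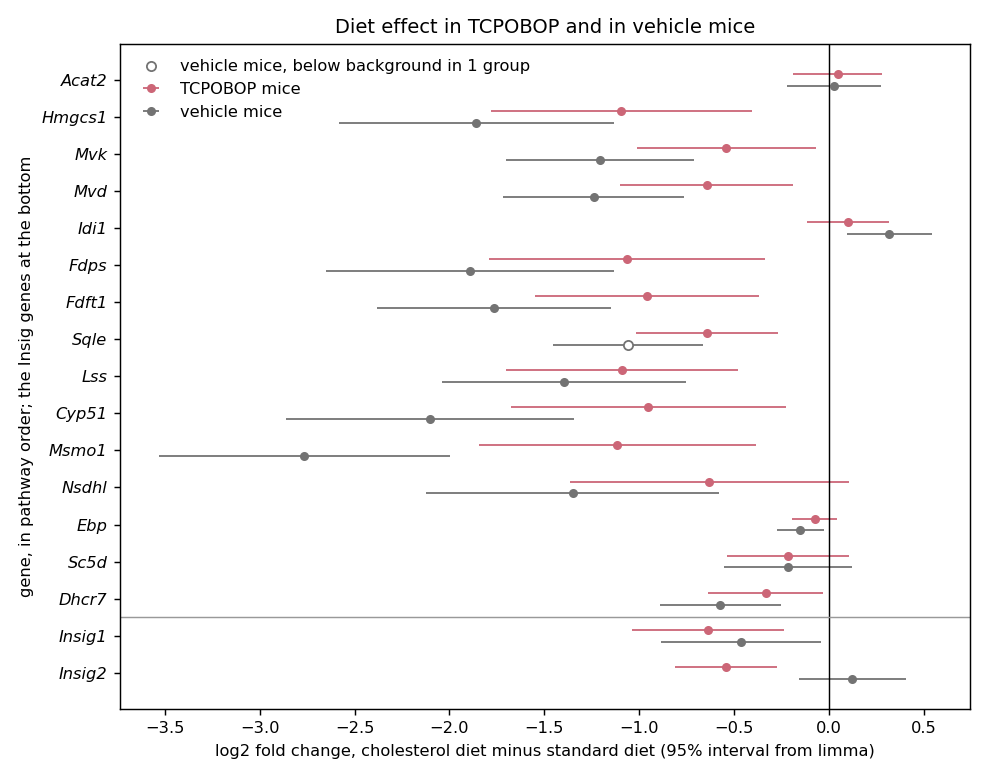
The log2 fold change of cholesterol against standard diet with its 95% interval from limma (horizontal axis) for the named cholesterol synthesis genes and both Insig genes, in TCPOBOP mice and in vehicle mice. The values for most pathway genes lie nearer 0 with TCPOBOP, where Msmo1 has -1.11 against -2.77, while Insig2 has -0.54 against 0.12. The open point of Sqle is the fitted value, drawn open because vehicle mice on cholesterol diet were below background. The interaction missed the threshold for each of these genes.

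Of 9 genes for SREBP processing and sterol sensing, 1 fell (Insig2), 0 rose and 8 were not called, at a median of -0.008. Insig2 had log2 ratios of 0.87, 1.13 and 1.28 on standard diet and of -0.15, 0.72 and 0.85 on cholesterol diet. The groups did not overlap, and replicate 3 on cholesterol diet lay far below the others. Insig2 fell by 0.54 with a standard error of 0.13 (adjusted p = 0.0161 from limma), and without replicate 3 on cholesterol diet it was -0.40 (adjusted p = 0.015). The call was lost with median centring (-0.49, adjusted p = 0.084), loess on the spikes (-0.41, adjusted p = 0.117) and the deposited log ratios (-0.45, adjusted p = 0.0643). In vehicle mice the difference was 0.12 (adjusted p = 0.631), and the interaction was -0.66 (standard error 0.19, adjusted p = 0.0771 from limma), which became -0.52 (adjusted p = 0.0305) without replicate 3 on cholesterol diet. Insig2 was higher with TCPOBOP than with vehicle on both diets, by 1.84 on standard diet (adjusted p = 1.25e-10) and by 1.18 on cholesterol diet (adjusted p = 3.90e-07). In the paper's RT-PCR the transcript Insig2a rose and Insig2b fell with TCPOBOP on both diets, which a single array value for the gene does not show.

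Insig1, whose gene is itself a target of SREBP, had 0.02, 0.46 and 0.86 on standard diet and -0.86, -0.14 and 0.27 on cholesterol diet. All 6 mice on cholesterol diet were below the standard diet mean. Its difference of -0.64 (standard error 0.19, adjusted p = 0.0532 from limma) missed the threshold, and in vehicle mice it was -0.46 (adjusted p = 0.125). The machinery that processes SREBP gave small values: Scap had 0.10 (adjusted p = 0.721), Mbtps2 had -0.04 (adjusted p = 0.842) and Mbtps1 had 0.00 with an interval of -0.29 to 0.29. Nr1h2, which encodes the oxysterol receptor LXR beta, had 0.02 (adjusted p = 0.933). The SREBP genes Srebf1 and Srebf2 were below background on all 12 arrays, and no fold is given.

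Of 8 bile acid synthesis genes, 0 were called, 2 had an unadjusted p under 0.05 as higher and 1 as lower, and the median was -0.04. Cyp7a1 catalyses the rate-limiting first step of the classical pathway. It had log2 ratios of -0.24, 0.01 and 0.43 on standard diet and of -0.31, -0.14 and 0.46 on cholesterol diet. The groups covered almost the same range, and the difference of -0.06 had an interval of -0.40 to 0.28. Cyp8b1, the sterol 12-alpha-hydroxylase that makes cholic acid, had -2.58, -1.37 and -0.27 on standard diet and -0.88, -0.62 and 0.05 on cholesterol diet. Its difference was 0.75 (standard error 0.31, adjusted p = 0.157) against -0.77 in vehicle mice (adjusted p = 0.118), and the interaction of 1.52 (standard error 0.45) had an adjusted p of 0.0832 from limma.

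In the alternative routes, Cyp39a1, an oxysterol 7-alpha-hydroxylase, had 0.47, 0.86 and 1.10 on standard diet and 0.39, 0.53 and 0.61 on cholesterol diet. The difference was -0.31 (standard error 0.09, adjusted p = 0.0532 from limma). Cyp7b1, the other oxysterol 7-alpha-hydroxylase measured, had the opposite sign, with 0.20 (standard error 0.08, adjusted p = 0.157). Cyp27a1, the sterol 27-hydroxylase, had -0.16 (adjusted p = 0.443), the cholesterol 24-hydroxylase Cyp46a1 had -0.14 (adjusted p = 0.355), Ch25h, the cholesterol 25-hydroxylase, had -0.01 (adjusted p = 0.987) and Scp2, a sterol carrier, had 0.12 (adjusted p = 0.698). None of these passed the threshold.

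**Figure D4:**
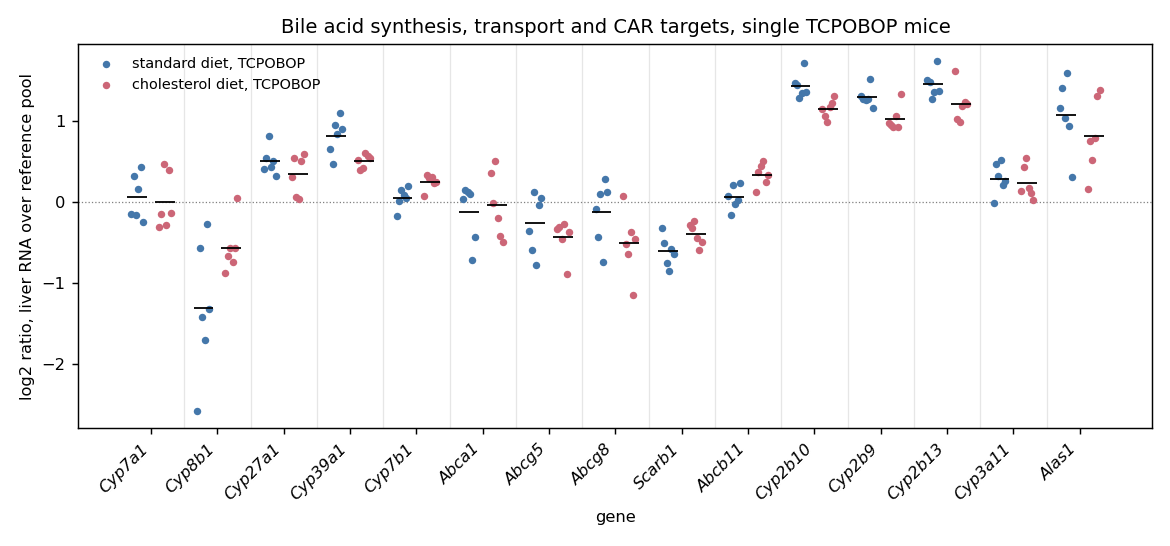
The log2 ratio to the reference pool (vertical axis) of bile acid synthesis genes, transporters and CAR checks in each TCPOBOP mouse on standard and on cholesterol diet (points), with group means as lines. Cyp2b10 lies between 0.99 and 1.71 in all 12 mice, and the Cyp7a1 values of both groups overlap.

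Of 5 sterol transporters, 0 were called, at a median of 0.08. Scarb1, the HDL receptor, had -0.85, -0.61 and -0.32 on standard diet and -0.59, -0.39 and -0.23 on cholesterol diet, a difference of 0.21 (standard error 0.09, adjusted p = 0.153). Abcg5 and Abcg8 form the transporter that exports sterols into bile. They had -0.17 (adjusted p = 0.779) and -0.38 (standard error 0.25, adjusted p = 0.456) with TCPOBOP, and 0.55 and 0.56 in vehicle mice. The interactions of -0.72 (adjusted p = 0.333) and -0.94 (adjusted p = 0.206) missed the threshold. Abca1 and Abcg1, exporters of cholesterol to lipoproteins, had 0.08 (adjusted p = 0.897) and 0.11 (adjusted p = 0.445).

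Among other metabolic genes, 0 of 12 for glucose metabolism, 0 of 4 for fatty acid synthesis, 0 of 3 for fatty acid oxidation and ketone synthesis and 0 of 12 for lipoproteins and lipases were called. Below background on all 12 arrays were 1 of the 4 for fatty acid synthesis and 3 of the 12 for lipoproteins and lipases. Mlxipl, which encodes the carbohydrate-responsive factor ChREBP, had -0.06, 0.17 and 0.49 on standard diet and 0.19, 0.57 and 0.82 on cholesterol diet, a difference of 0.34 (standard error 0.10, adjusted p = 0.0532). It rose by 0.85 in vehicle mice (adjusted p = 1.15e-05), and the interaction of -0.51 had an adjusted p of 0.0832 from limma. Scd1, the stearoyl-CoA desaturase, spread widely, with -1.11, -0.37 and -0.08 on standard diet and -2.34, -0.77 and 0.70 on cholesterol diet, and its difference was -0.31 (adjusted p = 0.806). Apoa4, an apolipoprotein, had -0.20 (adjusted p = 0.691) with TCPOBOP and rose by 0.93 in vehicle mice (adjusted p = 0.00262). Its interaction of -1.13 (standard error 0.29, adjusted p = 0.0528 from limma) was among the 6 with the lowest adjusted p.

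Of 17 acute phase, complement and coagulation genes, 0 were called and 4 had an unadjusted p under 0.05, all higher, at a median of 0.04. The complement gene C9 had -1.64, -1.44 and -0.77 on standard diet and -1.22, -0.76 and 0.33 on cholesterol diet, a difference of 0.73 (standard error 0.24, adjusted p = 0.071), and it rose by 0.96 in vehicle mice (adjusted p = 0.00819). The acute phase gene Saa1 had -4.87, -3.10 and -0.84 on standard diet and -4.33, -4.23 and 0.34 on cholesterol diet, where replicate 3 held the highest value. The difference was -0.32 (standard error 0.72, adjusted p = 0.918). Of 30 nuclear receptors and co-regulators 0 were called, at a median of 0.02, and of 8 circadian clock genes 0 were called. Below background on all 12 arrays were 3 of the 30 and 4 of the 8, so these were not measured well enough to show a change.

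**Figure D5:**
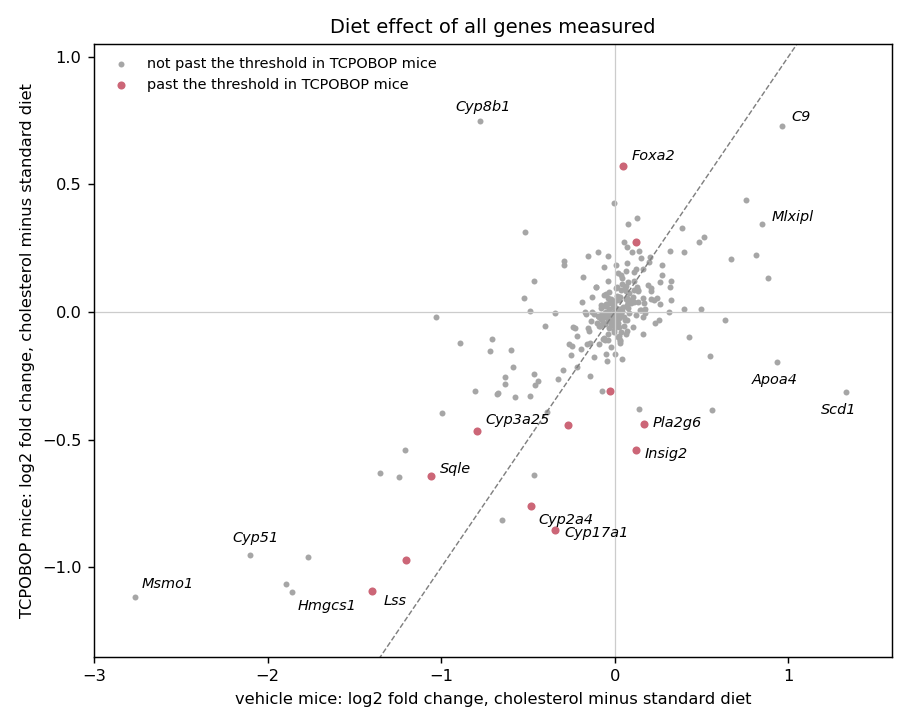
The log2 fold change of cholesterol against standard diet of all 277 genes in vehicle mice (horizontal axis) and in TCPOBOP mice (vertical axis), with the genes past the threshold in TCPOBOP mice in red and equal values on the dashed line. Foxa2 lies near 0 in vehicle mice and at 0.57 with TCPOBOP, and Msmo1 lies at -2.77 in vehicle mice and at -1.11 with TCPOBOP.

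The scanner files state spot positions either in micrometres or in millimetres, which was taken as a batch: micrometres in replicates 1 and 2 of each TCPOBOP group (4 arrays) and millimetres in the other 8. Between the units limma called 0 of 277 genes in these 12 arrays, with 15 at an unadjusted p under 0.05. With the unit as a block the diet called 14 genes, all 12 of the main fit among them. Each subset holds fewer arrays, so fewer calls there do not show a dependence on the batch. Within the micrometre arrays the diet called 0 genes (32 at an unadjusted p under 0.05), and within the millimetre arrays 3, Cyp2a4 and Foxa2 among them. Its size was -0.60 and -0.84 for Cyp2a4, 0.31 and 0.70 for Foxa2, -0.51 and -0.41 for Cyp2a12, -0.54 and -0.43 for Cyp3a25, and -1.02 and -0.77 for Cyp17a1 in the micrometre and millimetre arrays. It was -0.26 and -0.68 for Insig2 and -0.90 and -1.19 for Lss. All 7 kept their direction within both batches. In the millimetre arrays the adjusted p was 0.0857 for Cyp2a12 and 0.0715 for each of Cyp3a25, Cyp17a1, Insig2 and Lss, and the median over the cholesterol synthesis list was -0.69 and -0.54.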

How the data were processed

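Liver RNA of single mice was hybridized to 2-colour cDNA arrays, the sample in Cy3 and a common reference pool in Cy5, with no dye swap. The authors deposited the spot mean intensity of both channels with the local background, without subtraction or normalization, and these intensities gave all values in the text. The value table's log2 ratios, deposited in normalized form by the authors, were used as an alternative for 183 genes over 24 arrays, vehicle replicate 2 on cholesterol diet included. Their scale and direction were read from the scanner values of the same arrays (Pearson's r 0.917 to 0.996), and their column medians ran from -0.32 to 0.20 over the TCPOBOP arrays. Genome builds and transcript annotation behind the probes are not given in the sources used here.

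Spot intensities were background-corrected by normexp with an offset of 50 and normalized within arrays by loess fitted to the mouse spots. A probe's value is the mean log2 ratio of its 3 to 6 spots. The 284 probes stand for 277 genes (222 probes named by symbol, 51 by a synonym and 11 by the file's name), with the brightest probe for the 6 genes that have several. Above background means a spot mean over the local median by more than 2 background SDs, on most spots of the probe. One limma model (version 3.58.1, R 4.3.3, lmFit with eBayes) held the 4 groups and their 23 arrays. Python 3.11.15 matched names, searched promoters and drew the plots with matplotlib 3.10.9. Precision is limited by the number of arrays. The scripts were tested on simulated data.

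The genes named are those past the threshold for the diet effect with TCPOBOP or for the interaction, the members of 4 lists (sterol transporters, bile acid synthesis, the SREBP pathway and cholesterol synthesis), and Cyp2b10, Cyp2b9, Cyp2b13, Cyp3a11 and Alas1. Other list members are named as examples. Members and lists were chosen with earlier results of these data known. A few genes are left without a name here but remain in the fits, lists and counts. Alternatives covered background correction, normalization, spot summary, dim probes, the deposited ratios, the fit, blocks, array weights, the methods' t-test and threshold, and leaving out each mouse. Of 66 pairs of the 12 arrays, the lowest correlation was 0.116. Of 253 pairs of the 23 arrays, 91 had one under -0.3, the lowest being -0.67. The dyes are as the methods state them.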

Additional observations from a re-analysis of the deposited data

Results flagged for a closer look

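Of 146 groups of mice tested for a sample far from the rest, 11 held one, and chance gives about 1 in 20. On standard diet, replicate 5 had a Cyp2a4 log2 ratio of 1.78 against 1.21 to 1.39 in the others, and replicate 1 a Pla2g6 log2 ratio of 1.15 against 0.60 to 0.80. Replicate 5 on standard diet also had a median of -1.04 over the list of fatty acid oxidation and ketone synthesis, against -0.51 to -0.24. On cholesterol diet, replicate 1 had 0.0687 for Cyp7b1 against 0.24 to 0.33, and -0.186 for Foxa2 against 0.13 to 0.26. Replicate 3 on that diet had -0.150 for Insig2 against 0.49 to 0.85. Replicate 5 had -0.885 for Abcg5 against -0.45 to -0.27, and -0.524 for Idi1 against -0.22 to -0.06. Replicate 6 had 1.33 for Cyp2b9 against 0.92 to 1.06, 0.0476 for Cyp8b1 against -0.88 to -0.57, and 0.343 for Mbtps2 against -0.07 to 0.07.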

How the results depend on the processing

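The number of genes called for the diet with TCPOBOP was 12, and it was 3 with median centring, 5 with loess on the spikes, 5 with only the 2 TCPOBOP groups fitted, 0 within the micrometre arrays, 3 within the millimetre arrays, 50 by the methods' t-test unadjusted, 15 at the methods' threshold and 2 after Benjamini-Hochberg. It was 18 with dim probes left out and 10 to 15 under the other alternatives. Leaving out 1 mouse gave 7 to 23 calls, with 7 without replicate 3 and 23 without replicate 5 on cholesterol diet with TCPOBOP, and 22 without vehicle replicate 1 on cholesterol diet. Cyp2a4, Foxa2, Cyp2a12, Cyp3a25, Cyp17a1, Jun and Insig2 kept their call whichever of the 23 mice was left out. Cyp2a4 and Foxa2 lost it only within the micrometre arrays, at -0.60 and 0.31. Cyp2a12, Cyp3a25, Cyp17a1, Insig2, Jun, Lss, Sqle and Pla2g6 lost it under median centring and under the spike loess. In the deposited log ratios Cyp2a12, Cyp3a25 and Insig2 also lost it. With only the 2 TCPOBOP groups fitted, Insig2, Jun, Lss, Sqle, Pla2g6 and Slco2b1 lost it. Slco2b1, Sqle and Pla2g6 lost it with plain background subtraction, and Slco2b1 and Sqle with array weights. The causes were not tested.

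Lss lost its call without replicate 2, 3, 4 or 6 on cholesterol diet or 2, 3 or 5 on standard diet with TCPOBOP, and without vehicle replicate 3 or 4 on standard diet or 4 on cholesterol diet. Pla2g6 kept its call only without replicate 2 or 6 on cholesterol diet or 3 on standard diet with TCPOBOP, or without vehicle replicate 1 or 6 on standard diet or 1 or 3 on cholesterol diet. Sqle kept it only without replicate 4 or 5 on cholesterol diet or 1 or 4 on standard diet with TCPOBOP, or without vehicle replicate 1, 2 or 6 on standard diet or 1 or 3 on cholesterol diet. Slco2b1 kept it only without replicate 1, 4 or 5 on cholesterol diet or 2 or 3 on standard diet with TCPOBOP, or without vehicle replicate 1 or 6 on standard diet or 1, 3 or 5 on cholesterol diet.

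The interaction called 0 genes, but 6 with dim probes left out, 1 within the millimetre arrays and 0 to 6 with 1 mouse left out. It called 6 without vehicle replicate 3 on cholesterol diet, 6 without TCPOBOP replicate 3 on cholesterol diet and 6 without TCPOBOP replicate 2 on standard diet, with Abcc3, Cyp2e1 and Cyp4f14 in each. It called 5 and 4 without vehicle replicates 1 and 4 on cholesterol diet, and 1 without vehicle replicate 3 or TCPOBOP replicate 4 or 6 on standard diet. The fit of only 2 groups and the t-test give no interaction. The median over cholesterol synthesis stayed between -0.69 and -0.54 under the alternatives that kept all mice or split them by batch, and between -0.75 and -0.47 with 1 mouse left out. No called value of a named gene changed sign. Over all alternatives, 1727 values of named genes kept sign and side of the threshold, 122 lost the call, 40 gained it, and 58 uncalled values of 17 genes turned sign. Among those, Cyp7a1 had 0.29 in the deposited log ratios.

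The deviations of TCPOBOP mice with the same replicate number had correlations of -0.37 to 0.52 between the diets. They were 0.52 for number 5 and 0.33 for number 6, and negative for numbers 1 to 4. The labels state no pairing, and these mixed values cannot settle whether the numbers pair the mice. With the replicate block 14 genes were called, 11 of the 12 among them, without Sqle.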
